A study of Rattus norvegicus with 13 samples.

Results

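The immediate-early genes described here are Fos, Fosb, Jun, Junb, Egr1, Ier2, Atf3, Dusp1, Zfp36 and Nr4a1, measured in the thyroid of male Wistar rats whose mothers received potassium iodide (KI) or saline during pregnancy. They were chosen by gene name, keeping every probe, which gave 10 genes with 12 probes and 41 spots among 36174 gene names, 45598 probes and 58717 gene spots on the array. The KI-treated group (n = 6) is the male progeny of dams gavaged with 1 mg/kg/day of KI for 8 days from gestational day 9, until day 16 in one place of the study's text and day 17 in another. The control group (n = 7) is the male progeny of dams gavaged with saline over the same days. Thyroids were taken 30 days after weaning, 51 days after birth, so neither group was being treated when the tissue was frozen, and all animals had the same strain and sex. The question was whether this gene group differed between the KI-treated group and the control group, and whether its genes moved together from animal to animal. The litter of each animal is not given in the sources used here, so animals were treated as independent, and p-values measure the spread between these arrays. Animals are named by group and replicate number, as KI 3 or control 1.

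Immediate-early genes are transcribed within minutes of a stimulus, without new protein synthesis, when kinases activate transcription factors already bound at their promoters, such as SRF and CREB. Fos, Fosb, Jun, Junb and Atf3 encode basic leucine zipper proteins that pair into AP-1 and related dimers, Egr1 a zinc finger factor, Nr4a1 an orphan nuclear receptor and Ier2 a nuclear regulator, while Dusp1 and Zfp36 encode feedback inhibitors. In the thyrocyte, TSH acting through cAMP is a known inducer of several of them, and in dissected tissue they are also known to respond to stress, hypoxia and handling before freezing. Which of these acted in the present animals was not recorded in the files and was not tested.

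The promoters of Junb, Dusp1 and Ier2 are shown because Ier2 with Jun and Junb with Dusp1 were the pairs whose levels stayed closest across animals, as described further on, once KI 3 and control 1 were left out. RefSeq promoter sequences (rat build GRCr8) were matched for 7 of the 10 genes, namely Fosb, Junb, Egr1, Ier2, Dusp1, Zfp36 and Nr4a1. The 250 bases before the transcription start are given 5′ to 3′, with capitals marking TGACG (the core of the cAMP response element), the full element TGACGTCA and the TATA motif TATAAA, each searched on both strands.
Junb, chr19:40080876-40081125, plus strand: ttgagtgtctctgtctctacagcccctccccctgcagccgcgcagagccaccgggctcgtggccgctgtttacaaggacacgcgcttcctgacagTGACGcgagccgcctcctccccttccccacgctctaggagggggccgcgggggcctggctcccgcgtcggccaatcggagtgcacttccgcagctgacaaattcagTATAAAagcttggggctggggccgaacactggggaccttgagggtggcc
Dusp1, chr10:17184603-17184852, plus strand: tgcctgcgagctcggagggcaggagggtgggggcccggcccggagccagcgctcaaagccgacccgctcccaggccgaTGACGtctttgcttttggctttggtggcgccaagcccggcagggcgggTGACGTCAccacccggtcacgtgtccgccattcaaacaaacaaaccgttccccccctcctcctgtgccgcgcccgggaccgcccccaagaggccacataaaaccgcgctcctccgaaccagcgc
Ier2, chr19:40399123-40399372, plus strand: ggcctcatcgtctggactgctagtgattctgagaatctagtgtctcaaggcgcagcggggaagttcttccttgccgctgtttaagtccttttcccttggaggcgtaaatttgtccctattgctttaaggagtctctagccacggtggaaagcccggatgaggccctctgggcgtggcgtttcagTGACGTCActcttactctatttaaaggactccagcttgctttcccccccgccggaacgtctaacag
The full element TGACGTCA lay 124 to 117 bases before the start of Dusp1 and 66 to 59 bases before that of Ier2, and 1.59% of all 33469 promoters held it in the same window. The core TGACG, which also counts inside the full element, was in 5 of the 7 matched promoters (Junb, Egr1, Ier2, Dusp1 and Nr4a1) against 18.2% of all promoters. The CArG box, the binding motif of SRF, was in the windows of Egr1 and Zfp36 (1.50% of all), and the EGR motif GCGGGGGCG in those of Zfp36 and Nr4a1 (2.45% of all). TATAAA was in Fosb and Junb (12.9% of all), and the AP-1 motif TGANTCA was in 0 of the 7 (6.34% of all). These matches describe the letters of the windows alone.

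The arrays were one-colour, and a level is log2 of the processed signal of a probe minus the 75th percentile of its array, so a level of 0 is a signal equal to that percentile and levels of different probes are not compared. Between 34840 and 41050 of the gene spots of an array were well above background, and none was saturated. Over the 25650 tested probes with complete values, control 4 and control 6 stood apart from the other arrays, with median correlations to the other 12 arrays of 0.959 and 0.968 against 0.978 to 0.983 for the remaining 11. Of 12 thyroid follicular cell markers 11 were well above background on all 13 arrays, among them Tg, Pax8, Nkx2-1 and Foxe1, and Slc26a4 was not on any. In bulk tissue, fewer cells of a type and less RNA per cell cannot be told apart.

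The immediate-early genes did not pass the test between the KI-treated group and the control group, and the groups overlapped for all 12 probes. A probe was tested where 6 or more arrays read it well above background, which left 11, and of these 8 had a higher mean in the KI-treated group and 3 a lower one, where 39.3% of all 25713 tested probes were higher. This count moved with the animals kept. Without KI 3 the KI-treated mean was higher for 3 of the 11 (Junb, Atf3 and Dusp1) and for 38.8% of all probes. Without KI 3 and control 1, the animal with the highest Fos in each group, it was 6 of the 11 and 39.4% of all. Without control 4 and control 6 it was 7 of the 11 and 48.0%. Over the normalizations run, the share of all probes ran from 29.4% to 52.6%, with 7 or 8 of the 11 members. By limma with Benjamini-Hochberg adjustment 0 of the 11 passed, as did 0.0% of all tested probes, and by unadjusted p under 0.05 it was 1 of 11, the brighter Ier2 probe, against 12.7% of all (7.01% with the lower mean in KI-treated animals and 5.71% with the higher). Groups that did not overlap were found for 0 of the 11 member probes and for 0.587% of all probes, 0.261% with KI-treated animals above and 0.327% with them below. With each gene taken by its brightest probe, the median log2 change was 0.14 over the 9 tested members and -0.10 over 20673 genes. Without KI 3 these medians were -0.044 and -0.10, and without KI 3 and control 1 together they were 0.087 and -0.12.

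**Figure D1:**
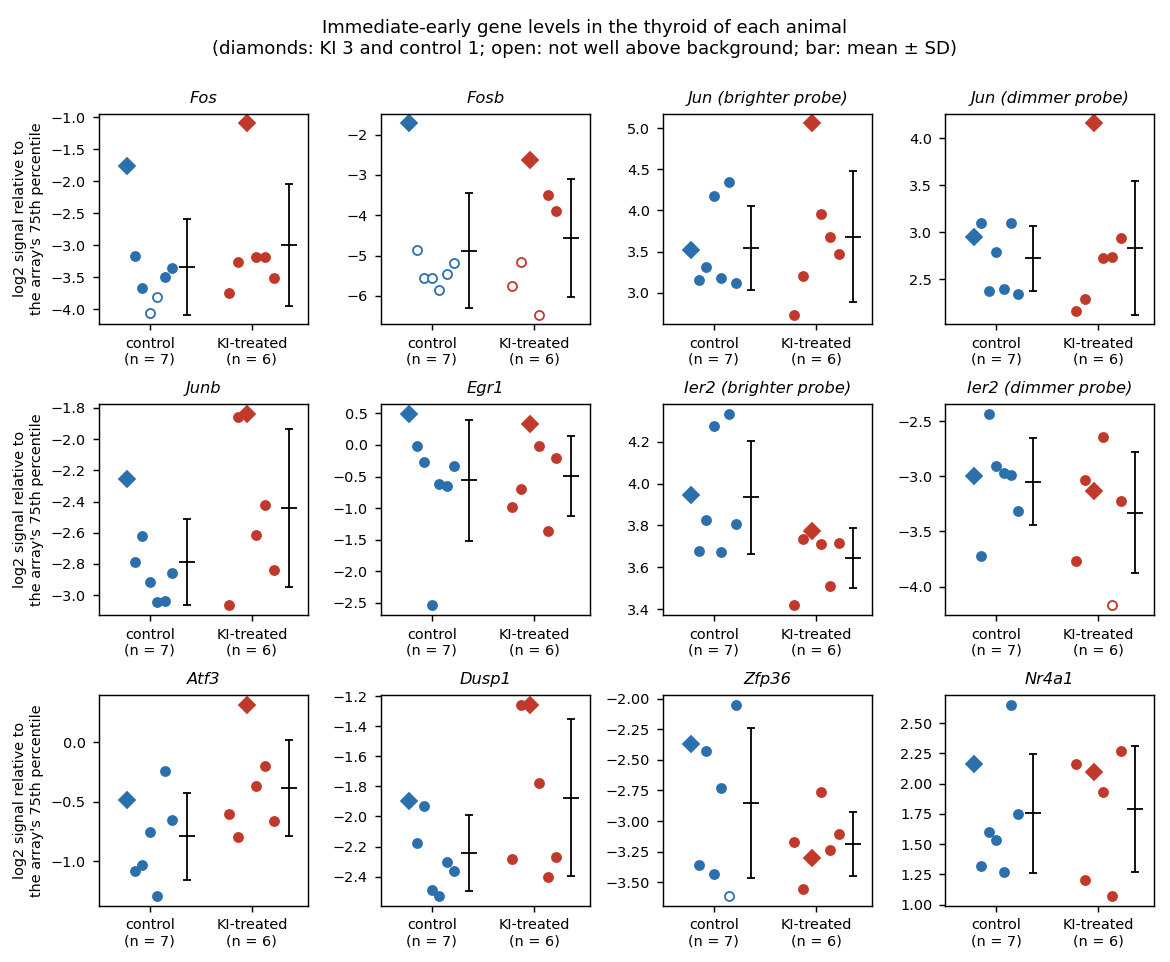
Level of each of the 12 probes (y axis, log2 signal relative to the array's 75th percentile, a scale of its own in each panel) in the 7 control and 6 KI-treated animals, with the mean and SD of each group beside the points and open symbols where the probe was not well above background. The diamonds, KI 3 and control 1, sit far above the other animals of their groups for Fos, and the groups overlap in every panel.

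For Fos, 1 animal of each group stood far above the rest. Fos encodes the founding AP-1 subunit that needs a JUN partner, and its probe (rn4 chr6:109561941-109562000) was well above background on 11 arrays. Levels ran from -3.74 to -1.09 in the KI-treated group (median -3.22) and from -4.06 to -1.76 in the control group (median -3.50). KI 3 at -1.09 was 4.37-fold above the median of its own group and control 1 at -1.76 was 3.33-fold above its own, while the other 11 animals lay between -4.06 and -3.17. Between the groups the log2 change of Fos was 0.34 (SE 0.42, 95% interval -0.56 to 1.24, limma adjusted p = 0.676). It was -0.044 without KI 3, 0.60 without control 1 and 0.16 without control 4 and control 6. The signal of Fos was read from 2 spots, whose median SD within an array was 0.23 on the log2 scale, against an SD of 0.85 between animals of one group. Each animal had 1 array, so the SD between animals also holds differences between arrays, which spots of one array do not measure.

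Fosb, which encodes a related and longer-lived subunit, was well above background on KI 3, KI 5, KI 6 and control 1 alone (probe at rn4 chr1:78666646-78666705), and was not tested. In these 4 animals its level was -2.63, -3.51, -3.89 and -1.72, and on the other 9 arrays its signal read -6.46 to -4.86, below the limit of a firm measurement. Control 1 read 13.3-fold above the median of its group, a value with an uncertain base because that median was itself not well above background. The 2 animals with the highest Fos were thus those with the highest Fosb as well.

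In the JUN family, KI 3 stood out again. Jun, the subunit that can pair with itself or with FOS proteins, was read by a probe with 10 spots (rn4 chr5:115358764-115358823), whose median SD within an array was 0.030. Animals of one group, each on its own array, differed 21.8 times as much. The level of Jun ran from 2.73 to 5.06 in the KI-treated group (median 3.57) and from 3.12 to 4.34 in the control group (median 3.32). KI 3 was the highest of the 13, 2.81-fold above its group's median, followed by control 6 at 4.34 and control 4 at 4.18, the arrays that stood apart. The second Jun probe (rn4 chr5:115359410-115359469) also put KI 3 first, at 4.16, but here control 4, at 2.79, was the median of the controls, and control 2 and control 6 were the highest of them. The probes correlated across animals with Pearson's r = 0.82 and Spearman's rho = 0.75 (permutation p for r = 0.00407, n = 13). The log2 change between the groups was 0.14 (SE 0.33, limma adjusted p = 0.823) for the brighter and 0.12 (SE 0.28, adjusted p = 0.825) for the dimmer probe. Without KI 3 these changes became -0.14 and -0.15, so the sign of the Jun difference rested on 1 animal.

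Junb encodes the JUN protein known for restraining Jun, and was higher in 5 of 6 KI-treated animals than the control median (probe at rn4 chr19:24832781-24832840). Its level ran from -3.07 to -1.84 in the KI-treated group (median -2.52) and from -3.04 to -2.26 in the control group (median -2.86). KI 2 at -1.86 and KI 3 at -1.84 lay above every control animal, and control 1 was the highest control. The log2 change was 0.35 (SE 0.21, 95% interval -0.10 to 0.79, limma adjusted p = 0.447, exact permutation p = 0.147).

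Atf3, a CREB-family factor induced by many kinds of stress, had the largest log2 change among the 9 genes tested, 0.41 (SE 0.20, 95% interval -0.03 to 0.84, limma adjusted p = 0.406, exact permutation p = 0.0822). Its probe of 60 bases has a listed position that spans 33 bases (rn4 chr13:107191582-107191614). Atf3 ran from -0.79 to 0.31 in the KI-treated group (median -0.48) and from -1.29 to -0.24 in the control group (median -0.76), with KI 3 again the highest. The change was positive under every alternative setting run, from 0.27 to 0.56, without passing the adjusted threshold in any.

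Egr1 did not follow a group (probe at rn4 chr18:27346058-27346117). Its level ran from -1.36 to 0.33 in the KI-treated group (median -0.45) and from -2.54 to 0.49 in the control group (median -0.33). Control 1 was the highest animal and KI 3 the next, and control 4, an array that stood apart, was the lowest by far. The log2 change of 0.07 (SE 0.41, limma adjusted p = 0.926) turned to -0.34 without control 4 and control 6.

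Nr4a1 had almost equal group means (probe with 10 spots at rn4 chr7:140020442-140020501). Its level ran from 1.07 to 2.27 in the KI-treated group (median 2.01) and from 1.27 to 2.65 in the control group (median 1.60), with control 6 the highest and KI 5 the lowest. The log2 change was 0.03 (SE 0.26, 95% interval -0.52 to 0.59, limma adjusted p = 0.946). Animals of one group, each on its own array, differed 10.1 times as much as the spots of one array.

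Ier2 was the member with the smallest unadjusted p, and it was lower in the KI-treated group. The brighter probe, with 10 spots (rn4 chr19:25160648-25160707), ran from 3.42 to 3.77 in the KI-treated group (median 3.72) and from 3.67 to 4.33 in the control group (median 3.83). All 6 KI-treated animals were below the control median, and control 6 and control 4 were the highest animals. The log2 change was -0.29 (SE 0.13, 95% interval -0.57 to -0.0044, unadjusted limma p = 0.0470, adjusted p = 0.390, exact permutation p = 0.0402). Without control 4 and control 6, the arrays that stood apart, it was -0.14 (adjusted p = 0.664). The dimmer probe (rn4 chr19:25159377-25159436) gave -0.28 (SE 0.24, adjusted p = 0.556), and the probes of Ier2 correlated less closely than those of Jun, with r = 0.45 and rho = 0.53 (permutation p for r = 0.108, n = 13).

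Of the feedback inhibitors, Dusp1 was highest in the same animals as Junb. Dusp1 encodes a phosphatase that switches off MAP kinases, and its probe maps to a stretch of 320 bases for its 60 bases (rn4 chr10:16944342-16944661). KI-treated animals had levels of -2.40 to -1.26 (median -2.02) and controls of -2.53 to -1.90 (median -2.30). KI 2 and KI 3, both at -1.26, were the highest of the 13 and control 1 was the highest control. The log2 change was 0.37 (SE 0.21, 95% interval -0.08 to 0.81, limma adjusted p = 0.436, exact permutation p = 0.135).

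Zfp36 encodes a protein that speeds the decay of messenger RNAs with AU-rich ends, including the messages of immediate-early genes. Its level ran from -3.55 to -2.76 in the KI-treated group (median -3.20) and from -3.61 to -2.05 in the control group (median -2.73), and all 6 KI-treated animals were below the control median (probe at rn4 chr1:83486788-83486847, well above background on 12 arrays). The log2 change was -0.33 (SE 0.25, 95% interval -0.87 to 0.20, limma adjusted p = 0.513), and KI 3 was not raised, at 0.936 times its group's median. Control 4 and control 6, the arrays that stood apart, were the lowest controls for Zfp36. Without them the change was -0.60, which did not pass the adjusted threshold. They were the only controls of their scan session, where the mean of Zfp36 was -3.48, against -3.05 and -2.49 in the others. The change without them therefore mixes group with session. The AU-rich pentamer ATTTA occurred 3 times in the Zfp36 probe and once each in the Nr4a1 probe and the brighter Ier2 probe, so in 3 of 12 member probes against 7.79% of all 45598 probes.

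**Figure D2:**
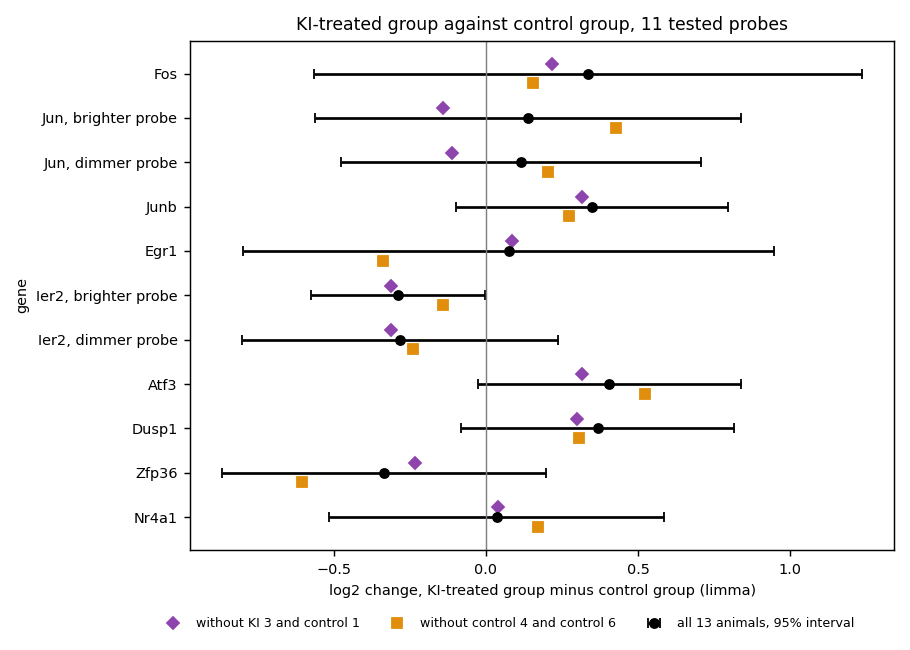
Log2 change of the 11 tested probes (x axis, KI-treated group minus control group) with the 95% interval from limma over all 13 animals, and the change without KI 3 and control 1 (diamonds) or without control 4 and control 6 (squares). All intervals but that of the brighter Ier2 probe (-0.57 to -0.0044) include 0, and Jun changes sign without KI 3 and control 1 and Egr1 without control 4 and control 6.

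The arrays were scanned in 3 sessions that each held both groups, and for Fos, Junb, Egr1 and Dusp1 the difference between the groups was highest in the session of KI 3 and lowest in that of control 1. For these genes KI 3 and control 1 were each first of their own group. The order therefore largely restates the values of those animals and is no separate result. In the session that held KI 3, whose controls were control 4 and control 6, the KI-treated animals exceeded the controls by 1.61 for Fos, 1.13 for Junb, 1.42 for Egr1 and 1.14 for Dusp1 (differences of mean log2 levels, 2 against 2 animals). In the session that held control 1, the same differences were -1.01, -0.25, -1.08 and -0.28 (3 against 2 animals). In the remaining session, with neither animal, they were 0.43, 0.23, 0.38 and 0.50 (1 against 3 animals). Jun, Ier2, Nr4a1 and Atf3 did not have this order. In the session of KI 3, that of control 1 and the remaining one, the differences were -0.13, -0.042 and 0.75 for the brighter Jun probe. They were -0.55, -0.26 and -0.056 for the brighter Ier2 probe, -0.44, 0.095 and 0.40 for Nr4a1, and 0.26, 0.30 and 0.62 for Atf3, so these 4 were highest where neither animal was. Zfp36 had 0.098, -0.31 and -0.36, highest in the session of KI 3 and lowest where neither animal was. With the scan session as a block, 0 of the 11 probes passed the adjusted threshold. Control 4 and control 6 were the only controls of their session, so every change given without them mixes group with session.

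The co-variation between animals was described with the brightest probe of each gene, after the mean of each group was subtracted. KI 3 had 9 of the 10 genes above its own group's median, was the highest of all 13 animals for 5 (Fos, Jun, Junb, Atf3 and Dusp1) and among the 2 highest for 7. Control 1 had 10 of 10 above its group's median and was the highest of 13 for Fosb and Egr1. At the other end, control 5 was above its group's median for 0 of the 10, and KI 1 and control 4 for 2 each. Both KI 3 and control 1 were first of their own group for 5 genes (Fos, Fosb, Junb, Egr1 and Dusp1), where 2.53% of 20673 genes had both first. These 2 animals were singled out after their values were seen, so the counts are a description. They shared neither a slide nor a scan session, and their arrays were not those that stood apart, with median correlations to the other arrays of 0.981 and 0.980. However, KI 3 shared its slide with control 6, and its session with both arrays that stood apart, control 4 and control 6. Whether a technical difference raised either animal was not tested.

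**Figure D3:**
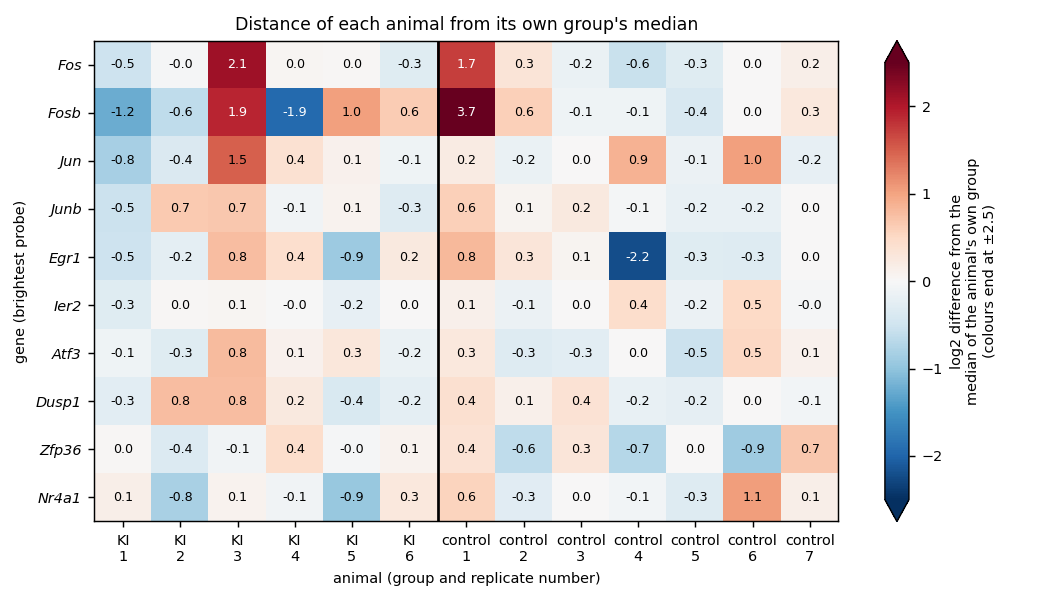
Log2 difference of each animal from the median of its own group (colour and number in each cell) for the brightest probe of each gene, with the 6 KI-treated animals to the left of the line and the 7 controls to the right. The columns of KI 3 and control 1 are raised for most genes, while control 4 and control 6 are raised for Jun and Ier2.

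Across all animals the genes tended to vary together. The 45 pairs had a median Pearson's r of 0.31 against 0.03 over all pairs of 20673 genes, 40 of 45 were positive against 52.0% of all pairs, and 8 of 45 (17.8%) reached r of 0.6 against 11.2% of all. By permutation of animals within groups (100000 permutations, Benjamini-Hochberg adjustment over the 45 pairs), 10 pairs passed unadjusted and 4 adjusted. These were Junb and Dusp1 (r = 0.85, rho = 0.74), Jun and Atf3 (r = 0.79, rho = 0.68), Fos and Junb (r = 0.73, rho = 0.63) and Jun and Ier2 (r = 0.73, rho = 0.64), each with a permutation adjusted p of 0.0422. By Spearman's rho 0 pairs passed the adjusted threshold and 8 passed unadjusted, the same 4 pairs having permutation p of 0.0277, 0.0168, 0.0291 and 0.0208 and an adjusted p of 0.190.

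Fos and Fosb reached r = 0.80 and rho = 0.62 (permutation p for r = 0.00568, adjusted p = 0.0511). Without the animals farthest from the median of Fos, which were KI 3 and control 1, it fell to 0.24. Fos and Junb fell to 0.45 without the same animals. Jun and Atf3 fell to 0.47 without KI 3 and control 6, Junb and Dusp1 to 0.59 without KI 2 and KI 3, and Jun and Ier2 kept 0.77 without KI 3 and control 6. Within the control group alone Jun and Ier2 had r = 0.98 over 7 animals, and without control 4 and control 6 the value over the remaining 11 animals was 0.58.

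Without KI 3 and control 1 the median r of the 45 pairs was -0.0074 and 0 pairs passed the adjusted threshold. These 2 animals were singled out by the same values, and fewer animals make the test weaker. The drop therefore does not show what the co-variation of the group rests on. Of the pairs that passed over 13 animals, Jun and Ier2 (r = 0.84), Junb and Dusp1 (0.77) and Jun and Atf3 (0.68) stayed high among the remaining 11. Over all 13 animals with session or slide means subtracted as well, Jun and Ier2 had r of 0.47 and 0.50. Junb and Dusp1 had 0.84 and 0.94, and Jun and Atf3 0.77 and 0.74. The pair of Jun and Ier2 was read on the brighter probes. On the dimmer Ier2 probe control 6 was the median control and control 4 lay 0.084 above it. Without control 4 and control 6 the median r was 0.50. Zfp36 had a median r of 0.024 to the other 9 genes over all animals, with r of -0.47 to Ier2 and -0.34 to Jun and its highest r, 0.46, to Egr1. These values turned with the scan session, since with session means subtracted as well all 9 were positive, from 0.15 to 0.74 (median 0.42), and with slide means subtracted they were 0.12 to 0.72. Without control 4 and control 6, Zfp36 had r of 0.31 to Ier2 and 0.09 to Jun.

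**Figure D4:**
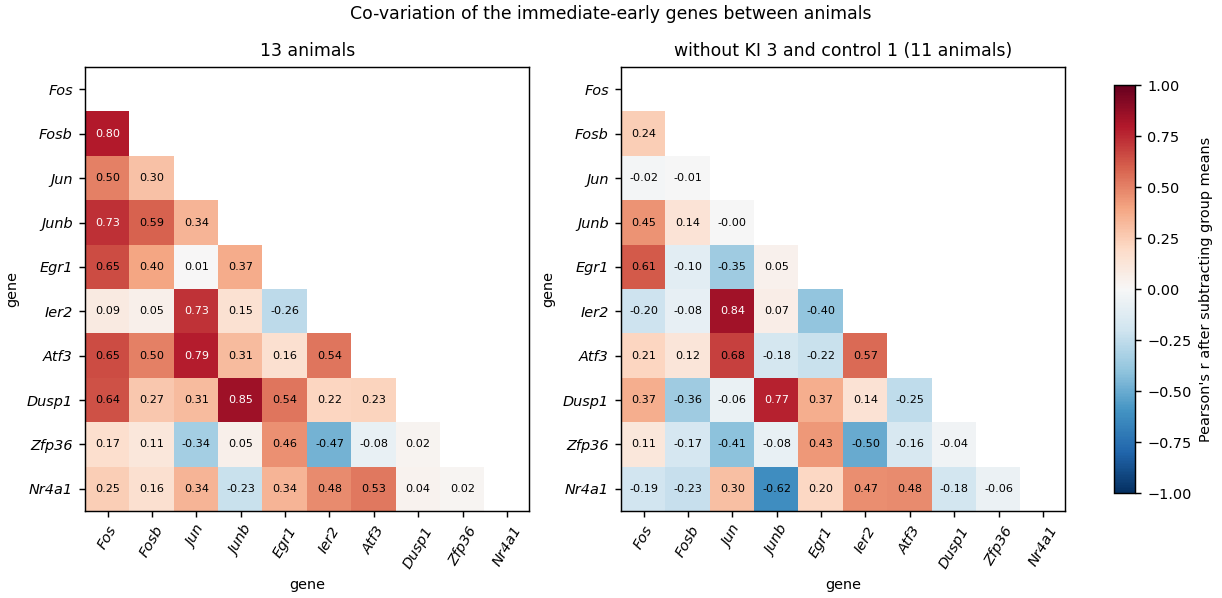
Pearson's r of each pair of genes across animals after subtraction of group means (colour and number), over 13 animals on the left and without KI 3 and control 1 on the right. The median of the 45 values is 0.31 on the left and -0.0074 on the right, and the pairs Jun with Ier2 and Junb with Dusp1 stay high in both.

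**Figure D5:**
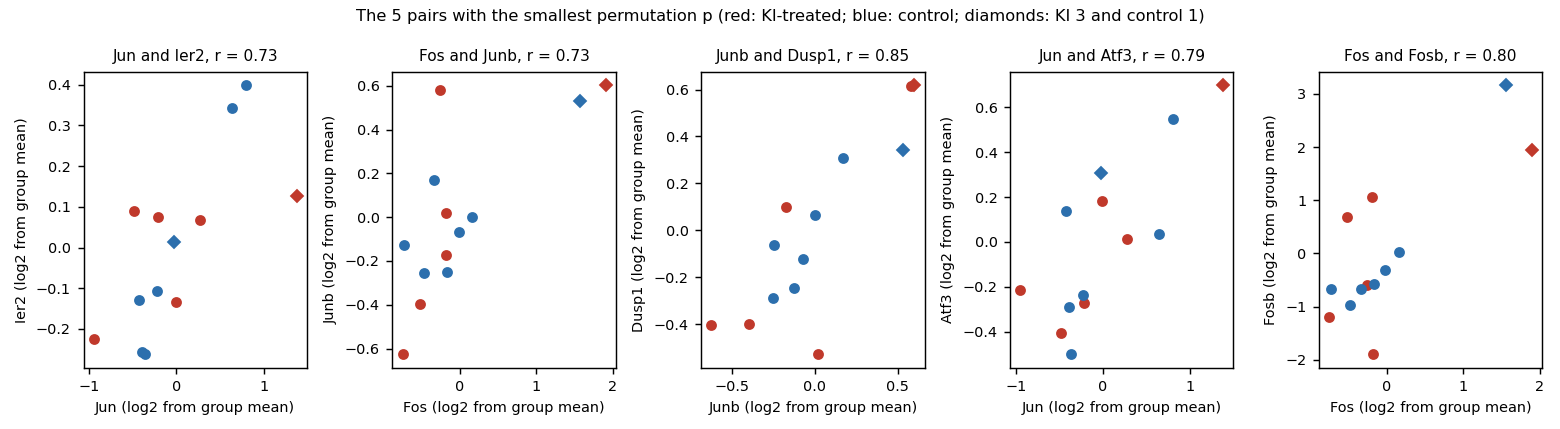
Levels of the 5 pairs with the smallest permutation p, as log2 difference from the group mean on both axes, with 1 symbol per animal (red for the KI-treated group, blue for controls, diamonds for KI 3 and control 1). In the panels of Fos with Junb and with Fosb the diamonds lie away from the other 11 animals, whereas Junb and Dusp1 spread along a line, and most Fosb values below 0 were not well above background.

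Among other primary response genes KI 3 and control 1 were often both the highest of their groups, which was not so in the remaining related lists. Of 26 tested primary response regulators and secreted proteins outside the group, KI 3 was the highest KI-treated animal for 15, control 1 the highest control for 12, and both for 8, namely Cyr61, Ctgf, Rhob, Gadd45a, Gadd45b, Sgk1, Mcl1 and Hbegf. Over all genes the shares were 20.0%, 13.3% and 2.53%. Of 14 other primary response transcription factors KI 3 was first for 7, control 1 for 3 and both for 3 (Egr2, Klf2 and Maff). Of 22 upstream kinases and factors KI 3 was first for 5, control 1 for 0 and both for 0. In contrast, of 12 glucocorticoid-responsive genes control 1 was the highest control for 8 and KI 3 the highest KI-treated animal for 1, Sgk1. Per1, a clock gene also induced by glucocorticoids, read 3.18 in control 1, the highest of all animals, and 1.48 in KI 3, the second lowest in its group. For the 8 heat shock genes (among them the constitutive Hspa8 and the factor Hsf1) and the 7 dual specificity phosphatases tested, neither animal was first for any. These lists were not tested against other genes.

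The genes most alike the members, by the median r to the 10 over the 17013 other genes well above background on all arrays, were led by Cyr61 (0.61), a secreted matrix protein and an immediate-early gene itself, and Upp1 (0.60), a uridine phosphorylase. Ifit2 (0.58), an interferon-induced gene, Vom1r61 (0.58), Dpy19l4 (0.57), Trmt1 (0.56) and the small GTPase gene Rhob (0.54) were among the first 10, with 3 probes named by transcript alone. Over 11 animals, without KI 3 and control 1, the median r of these 10 was between 0.18 and 0.31.

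In the comparison of the KI-treated group with the control group, 0 genes of the related lists passed limma's adjusted threshold. Of the other primary response transcription factors 6 of 14 were higher in the KI-treated group (median log2 change -0.06), and of the regulators and secreted proteins 7 of 26 (median -0.07). Of the dual specificity phosphatases 2 of 7 were higher, of the upstream kinases and factors 7 of 22, of the glucocorticoid-responsive genes 6 of 12 and of the heat shock genes 3 of 8. Over all 20673 genes 7523 were higher, with a median log2 change of -0.10. By unadjusted p under 0.05 the count was 8 of the 87 related genes tested (9.20%), against 12.8% of all 20673 genes. The smallest p belonged to Trib1, a pseudokinase that steers protein degradation, with a level of 0.69 ± 0.31 (SD, n = 6) against 1.27 ± 0.32 (SD, n = 7) and a log2 change of -0.58 (SE 0.17, limma adjusted p = 0.353), although its second probe gave 0.33.

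Next in order of p were genes of MAP kinase feedback and of prostaglandin synthesis. Dusp2, which encodes a nuclear MAP kinase phosphatase, was well above background in 5 of 6 KI-treated and 1 of 7 control animals and so was tested almost entirely through the KI-treated group. Its fitted log2 change of 1.18 (SE 0.39, adjusted p = 0.353) has an uncertain base, and ran from 0.15 to 1.48 over the alternative settings. Dusp4, a phosphatase of the same family, was well above background in 2 of 6 and 6 of 7, with the same limit on its fitted change of -0.73 (SE 0.30, adjusted p = 0.379), which was -0.24 with normexp and quantile normalization. Ptgs2, the inducible cyclooxygenase, changed by -0.48 (SE 0.18, adjusted p = 0.359) and Zfp36l2, a relative of Zfp36, by -0.63 (SE 0.25, adjusted p = 0.369). Srf, the factor that binds the CArG box, had a log2 change of -0.30 (SE 0.12, adjusted p = 0.370). Mcl1, a survival factor of the BCL2 family, had one of 0.31 and Hbegf, a growth factor, one of 1.12, and Hspa8, a constitutive chaperone, and Mapk3, the kinase ERK1, had -0.30 and -0.36, with adjusted p of 0.389 to 0.401. Hbegf was well above background on 6 of 6 KI-treated and 5 of 7 control arrays. Without control 4 and control 6, the arrays that stood apart, the changes were 0.39 for Hbegf, -0.30 for Zfp36l2, -0.15 for Hspa8 and -0.12 for Mapk3. The 4 probes of Hspa8 ran from -0.30 to 0.32, and the 3 of Zfp36l2 from -0.63 to -0.048.

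Markers of other cell types in the dissected tissue differed between animals. The summed level of 10 skeletal muscle genes ran from 2.18 to 6.41 in the KI-treated group and from 4.69 to 7.73 in the control group, that of 8 adipocyte genes from 5.89 to 7.32 and from 6.28 to 7.26, that of 5 blood genes from 8.22 to 8.86 and from 8.21 to 9.38, and that of 10 endothelial genes from 7.98 to 8.41 and from 7.91 to 8.93. The 8 smooth muscle and pericyte genes summed to 4.49 to 4.97 and 4.28 to 4.87, the 6 fibroblast genes to 7.11 to 7.65 and 7.28 to 8.09, and the 8 macrophage and dendritic cell genes to 5.09 to 5.44 and 4.92 to 5.88. Of 9 lymphocyte genes on the array 1 was well above background on all arrays, with sums of -1.51 to 3.46 and -1.05 to 1.20, the highest in KI 1. The parathyroid genes summed to 8.60 to 9.06 and 8.70 to 9.51 and the C cell genes to 7.50 to 8.35 and 7.17 to 8.30. KI 3 ranked 4 of 13 for skeletal muscle, 2 for smooth muscle and 13 for adipocyte genes, and control 1 ranked 7, 3 and 11. Neither was the highest of the 13 for these sums, but KI 3 was the lowest for adipocyte genes. For the endothelial sum KI 3 ranked 3, the highest KI-treated animal, and control 1 ranked 8. That sum had r of 0.64 to Jun and -0.044 to Fos. Signals were added before log2 was taken, so the brightest gene weighed most. In KI 3 Ucp1 read 5.28 and the adipocyte sum 5.89. Across animals the smooth muscle sum had the highest median r to the members, 0.36, and the adipocyte sum the lowest, -0.35. To Fos alone these sums had r of 0.30 and -0.65. The single adipocyte genes had r to Fos from -0.71 for Ucp1 to 0.41 for Plin1, with a median of -0.21. Taken singly by their median r to the members, the adipocyte genes ranged from -0.40 for Ucp1 to 0.21 for Plin1. The smooth muscle and pericyte genes ranged from -0.10 for Des to 0.39 for Pdgfrb, with a median of 0.17. The endothelial genes had a median of 0.10, with 0.39 for Tek. The part of these cell types in the levels of the immediate-early genes was not tested.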

How the data were processed

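Thyroid RNA of 13 male rats (6 KI-treated, 7 control) was measured on one-colour Agilent arrays. The authors deposited 1 scanner file per array with the fluorescence intensity of each spot, background-subtracted and detrended by Feature Extraction 10.7.3.1 and not normalized between arrays. A table of log2 values for these 13 arrays, likewise deposited, had rows that matched the scanner features by number (rank correlation 0.998 to 0.999 with the own scan, column medians 7.16 to 7.30). Their scale and direction are thereby settled, and their normalization is not named. This table served as an alternative only. Columns of other samples numbered 0. The cortex was not analysed here.

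Control and outlier-flagged spots were left out, spots of one probe were averaged, and the log2 processed signal was set against the 75th percentile of its array, taken over probes. The percentile scaling fixes each array's own reference, and low signals depend on the background subtraction, so testing was kept to probes that 6 or more arrays read well above background, with limma 3.58.1 in R 4.3.3. A probe counted as well above background where at least 0.5 of its spots were. On simulated arrays with 200 of 25650 probes changed, the test recovered 1% of changes of 0.5, 75% of changes of 1 and 95.5% of changes of 2 on the log2 scale. The changed probes were drawn from all and the noise was normal, so these shares are not those of the members. Among tested member probes the SD within groups ran from 0.22 for the brighter Ier2 probe to 0.85 for Fos. A two-sided exact permutation test over 1716 splits served for single values (smallest p 0.000583), and pairs with 100000 permutations within groups in Python 3.11.15. The number of arrays limits the precision.

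The members and lists were chosen with earlier results of these data known. The text names every member, the 10 genes of the related lists with the smallest p and the 10 genes most alike the members, and other genes were named after their values were seen. Probe positions are those of the array design (build rn4). Same-numbered animals did not deviate together (r -0.11 to 0.07), so the numbers do not pair them. Alternatives were other normalizations, filters, blocks, array weights, the t-test named in the study's results, and leaving out animals. Leaving out KI 3 with control 1, leaving out control 4 with control 6, and a percentile over all gene spots were added after the data had been seen.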

Additional observations from a re-analysis of the deposited data

Results flagged for a closer look

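In the KI-treated group the level of Fos in KI 3, -1.09, lay farther above the other 5 animals than a test for a single outlying value allows at the 95% level. In the control group the same held for Fos in control 1, at -1.76, and for Fosb in control 1, at -1.72, although Fosb was not well above background in the other 6 controls. Egr1 in control 4, at -2.54, lay farther below the other controls than the same limit. These were 4 of 24 combinations of probe and group, where chance gives about 1 in 20. Among all tested probes, KI 3 was placed this far above its group for 0.674% and control 1 for 0.386%.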

How the results depend on the processing

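Over 25713 tested probes the count past the adjusted threshold was 0, and it was 50 with array weights and 0 to 1 on leaving out single animals, with 1 without control 1 and 1 without control 2. Unadjusted counts ran from 2355 with the replicate block to 5120 with the scan session as a block, against 3271, and 3142 by the t-test named in the study's results. Of the probes with unadjusted p under 0.05, 44.9% were higher in the KI-treated group, against 25.4% with normexp and the 75th percentile and 62.0% with the percentile over probes detected on all arrays. The count of member probes past the adjusted threshold stayed at 0 under every alternative run, as did that of related genes, with 0 to 3 and 3 to 12 at unadjusted p under 0.05. With the replicate block, which did not pair the animals, the brighter Ier2 probe gave -0.31 (adjusted p = 0.539), and 0 probes passed.

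Single members changed sign as follows. Egr1 became -0.0092 with normexp and the 75th percentile, -0.22 with array weights, and -0.34 without control 4 and control 6 together, and leaving out single animals gave -0.25 to 0.25, below 0 without KI 3, KI 4 or control 4. Nr4a1 became -0.020 with the slide and -0.011 with the scan session as a block, and -0.062 to 0.18 on leaving out single animals, below 0 without KI 1, KI 3, KI 6, control 2, control 4 or control 5. Leaving out single animals gave -0.044 to 0.60 for Fos, -0.14 to 0.33 for the brighter and -0.15 to 0.25 for the dimmer Jun probe, each below 0 without KI 3. Without KI 3 and control 1 together the Jun probes gave -0.14 and -0.11. No change of a member or related gene crossed the adjusted threshold under any alternative. None of the 10 related genes described one by one changed sign, whereas of all 87 tested 42 did so under 1 or more alternatives, none of them with a change above 0.23 in size over all animals.

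The median r of the 45 pairs was 0.14 to 0.39 on leaving out single animals and -0.0074 without KI 3 and control 1 together. The 4 pairs past the adjusted threshold became 0 without subtraction of group means, 1 with the deposited log2 values, 0 by Spearman's rho, 0 without KI 3 and control 1 together, 0 without control 4 and control 6 together, and 0 to 8 on leaving out single animals. With scan session or slide means subtracted and animals permuted within sessions or slides, 0 pairs passed, and 11 and 7 passed unadjusted. The cause of these changes was not tested. Fosb, and in part Fos, lie near background, which limits their values.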
